A study of Mus musculus with 4 samples.

Results

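The haematopoietic heptad is a set of 7 transcription factor genes, Runx1, Gata2, Tal1, Lyl1, Lmo2, Fli1 and Erg, and it was followed here through single cells of the mouse embryonic aorta-gonad-mesonephros region (AGM). All 7 were found by symbol among the 32285 genes of the deposited matrices, and their unique molecular identifiers (UMIs, counts of single captured transcripts) were read in 42225 retained cells. The cells came from C57BL/6J embryos at E11.5 (embryonic days), were positive for CD31 (the endothelial surface protein encoded by Pecam1), and had been sorted by TMRM, a dye that accumulates in mitochondria according to their membrane potential. The fraction with low fluorescence is called MMPlow and that with high fluorescence MMPhigh, each with 2 libraries made with the 10x Genomics 3' v3 chemistry, and the labels give no other treatment or allele. The study asked what transcription underlies the link between mitochondrial activity and stem cell function. The labels do not say whether the libraries came from separate embryos or sorts, so p-values measure only the spread between libraries, which may be technical.

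The AGM is where haematopoietic stem cells first arise, from haemogenic endothelium of the dorsal aorta. The 7 proteins are known to bind together at many enhancers of blood stem and progenitor cells, and several of their genes are also active in endothelium. Runx1, the DNA-binding subunit of core binding factor, is required for endothelial cells to turn into blood cells, and Gata2 is a zinc finger factor needed for stem cell emergence and for mast cells. Tal1 and Lyl1 are related basic helix-loop-helix factors that pair with E proteins. Lmo2 is a LIM-only protein that binds no DNA and bridges Tal1 to GATA factors. Fli1 and Erg belong to the ETS family; both act in endothelium, and Fli1 is also a factor of megakaryocytes.

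RefSeq promoter windows on the GRCm38.p6 build were matched for 5 of the 7 genes, in 10 entries, and Fli1 and Lmo2 were not matched. The 250 bases upstream of 4 annotated starts are shown, which are the entries that held a motif match. Levels of Tal1 and Lyl1 followed each other across the cell classes described next, as did those of Runx1 and Lyl1. Levels of Runx1 and Erg did not. Capitals mark a match to an ETS or GATA motif; each sequence reads 5' to 3' on the gene's strand and ends at the base before the start.
Tal1 chr4:115056176-115056425 (+): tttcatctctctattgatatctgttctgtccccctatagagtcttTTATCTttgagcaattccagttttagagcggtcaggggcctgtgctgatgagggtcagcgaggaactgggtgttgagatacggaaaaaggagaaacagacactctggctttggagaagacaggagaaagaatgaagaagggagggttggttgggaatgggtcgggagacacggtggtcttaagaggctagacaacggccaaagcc
Lyl1 chr8:84701207-84701456 (+): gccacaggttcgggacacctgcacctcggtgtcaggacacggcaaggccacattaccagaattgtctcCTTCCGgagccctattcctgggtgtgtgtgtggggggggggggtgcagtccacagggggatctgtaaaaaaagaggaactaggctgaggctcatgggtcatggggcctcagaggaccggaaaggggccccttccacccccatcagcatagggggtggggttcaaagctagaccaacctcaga
Runx1 chr16:92826075-92826324 (-): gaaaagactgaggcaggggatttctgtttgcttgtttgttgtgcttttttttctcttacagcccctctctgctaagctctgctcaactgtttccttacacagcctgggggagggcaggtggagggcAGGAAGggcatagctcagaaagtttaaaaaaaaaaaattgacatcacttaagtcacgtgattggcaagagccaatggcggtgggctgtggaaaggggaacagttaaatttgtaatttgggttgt
Erg chr16:95459349-95459598 (-): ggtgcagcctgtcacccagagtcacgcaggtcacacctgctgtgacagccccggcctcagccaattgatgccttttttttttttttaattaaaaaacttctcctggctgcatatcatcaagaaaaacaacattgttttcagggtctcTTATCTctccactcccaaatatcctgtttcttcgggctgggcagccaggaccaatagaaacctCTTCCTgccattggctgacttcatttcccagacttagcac
On both strands, the ETS motif was searched as AGGAAG and alternatively as CGGAAG. The GATA motif was AGATAA with the alternative TGATAA. The E-box of Tal1-type factors was CAGATG with the alternative CAGCTG, and the RUNX motif TGTGGT with the alternative TGCGGT. Tal1 held a GATA match 205 bases before its start, Lyl1 an ETS match at 182 bases and Runx1, at its distal promoter, an ETS match at 124 bases. Erg held a GATA match at 103 bases and an ETS match at 40 bases. Over the 10 entries, 3 held ETS letters and 2 held GATA letters, all in the 4 entries printed, and the other entries of Tal1, Runx1, Erg and Gata2 held none. Of all 32536 RefSeq promoter windows of the same length, 39.3% held the ETS letters, 16.5% GATA, 25.5% the E-box and 18.5% RUNX. Neither E-box nor RUNX letters occurred in the 10 entries of the 5 genes. These matches describe letters in a window only.

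The libraries differed in depth and make-up. They held between 51800709 and 120168395 UMIs, and between 3403 and 18606 cells were retained in each. The median cell held 3087, 3655 and 3685 UMIs in MMPlow 1, MMPlow 2 and MMPhigh 1, but 23605 in MMPhigh 2, so shares of cells with a UMI are given after thinning each cell to 2000 UMIs. Between 7 and 82 cell barcodes were shared by any pair of libraries. Endothelial-like cells numbered 7705 and 8767 in the MMPlow libraries but 16 and 15 in MMPhigh, although both fractions are labelled CD31 positive. Pecam1, the CD31 gene, stood at 453 and 464 CPM in the endothelial-like cells of MMPlow and at 493 and 561 CPM in those of MMPhigh, where CPM, the usual per-million unit, scales UMIs to the total of the summed cells. In muscle progenitor-like cells, Pecam1 stood at 59.4 and 62.6 CPM in MMPlow and at 1.42 and 3.13 CPM in MMPhigh. The share of cells in clusters left without a name was 14.0% and 17.1% in MMPlow and 57.1% and 20.4% in MMPhigh. In bulk sums over all cells, fewer cells of a type and less RNA per cell cannot be told apart.

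The 5 classes endothelial, progenitor, megakaryocyte, macrophage and erythroid were described in depth. Class names rest on marker lists that hold none of the 7 genes, and the 7 genes were kept out of the genes used for clustering, so that a level in a class is not fixed by its name. Because classes come from the same cells, levels between classes are given as a description with no test. Progenitor-like cells, with Cpa3, Angpt1 and Ikzf2 among their leading genes, numbered 601 and 738 in MMPlow but 5 and 25 in MMPhigh. Megakaryocyte-like cells numbered 951 and 1039 in MMPlow and 141 and 101 in MMPhigh. Macrophage-like cells numbered 1442, 1645, 596 and 856 in MMPlow 1, MMPlow 2, MMPhigh 1 and MMPhigh 2. Erythroid-like cells numbered 75, 85, 58 and 84 in the same order. An unnamed cluster led by red cell genes, described at the end, held more cells and is not part of this class. The order MMPlow 1, MMPlow 2, MMPhigh 1, MMPhigh 2 is kept for every set of 4 values that follows.

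Runx1 was a gene of the blood classes. In megakaryocyte-like cells it stood at 1529.8, 1305, 1481 and 1571 CPM, and in progenitor-like cells at 1418, 1358, 2499 and 909 CPM, the 2499 resting on 5 cells. The ranges of these 2 classes overlapped in MMPlow, and both lay above every other class there, the progenitor-like mean being 2.17 times that of the next class, granulocyte or mast-like cells. Macrophage-like cells held 587, 586, 675 and 686 CPM, and erythroid-like cells 165, 208, 296 and 322 CPM. Endothelial-like cells held 37.4, 28.1, 4.07 and 0 CPM, the lowest MMPlow mean of the 11 named classes. Muscle progenitor-like cells, which are not of the blood lineage, held 59.4 and 65.7 CPM in MMPlow, and hepatic-like cells 83.7 and 109 CPM. The endothelial-like level lay below both of these background classes in each MMPlow library.

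Gata2 had its highest level in the progenitor-like class. At a finer clustering, given below, the progenitor-named group with mast cell and basophil genes held more of it than the other progenitor-named groups. Progenitor-like cells held 205, 193, 704 and 184 CPM, the 704 resting on 5 cells, and their MMPlow mean was 7.18 times that of the next class. The next were megakaryocyte-like cells with 31.3, 24.1, 27.8 and 29.1 CPM, granulocyte or mast-like cells, and endothelial-like cells with 25.3, 23.6, 8.15 and 19.4 CPM, and neighbours in that order overlapped. Macrophage-like cells held 16.3, 9.38, 0.766 and 1.26 CPM and erythroid-like cells 11.3, 6.30, 0.555 and 1.73 CPM. Muscle progenitor-like cells held 15.4 and 8.5 CPM in MMPlow, above the erythroid-like value and just below the macrophage-like value of the same library.

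Tal1 and Lyl1 shared their leading class. Tal1 stood at 189, 206, 171 and 179 CPM in megakaryocyte-like cells, 1.53 times the MMPlow mean of erythroid-like cells, which held 122, 135, 122 and 116 CPM. Progenitor-like cells followed with 76.9, 71.9, 106 and 64.9 CPM, endothelial-like cells with 64.2, 60.8, 53.0 and 47.2 CPM, and macrophage-like cells with 50.4, 43.4, 24.8 and 30.3 CPM. None of these classes overlapped another of them in MMPlow. Lyl1 stood at 54.9, 53.8, 64.1 and 69.5 CPM in megakaryocyte-like cells, and granulocyte or mast-like cells overlapped them. Progenitor-like cells held 35.8, 34.6, 17.6 and 68.5 CPM of Lyl1, macrophage-like cells 37.5, 33.8, 30.4 and 37.3, erythroid-like cells 35.2, 30.5, 54.4 and 47.6, and endothelial-like cells 24.6, 22.4, 16.3 and 25. Muscle progenitor-like cells held 9.50 and 7.72 CPM in MMPlow, below each of the 5 classes.

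Lmo2 was broad. Erythroid-like cells held 262, 282, 358 and 325 CPM, megakaryocyte-like cells 242, 228, 298 and 266 CPM, and endothelial-like cells 207, 209, 281 and 189 CPM. These 3 classes led in MMPlow in that order without overlap, the first mean being 1.16 times the second and the second 1.13 times the endothelial-like mean. Progenitor-like cells held 116, 123, 0 and 148 CPM and macrophage-like cells 112, 110.5, 89.1 and 74.5 CPM. The 0 in progenitor-like cells of MMPhigh 1 was a count over 5 cells, which allows a level of up to 52.8 CPM.

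The ETS factors parted from each other in megakaryocyte-like cells. Fli1 stood at 1227, 1201, 1121 and 1059.8 CPM there, 1.88 times the MMPlow mean of endothelial-like cells, which held 630.0, 659.6, 574 and 728 CPM. Macrophage-like cells held 561, 536, 398 and 452 CPM of Fli1 and progenitor-like cells 451, 455, 475 and 292 CPM. Erythroid-like cells held 45.0, 56.7, 9.99 and 8.06 CPM, the lowest of the 11 named classes in MMPlow. Erg instead stood highest in endothelial-like cells, at 168, 171, 134 and 197 CPM, except in MMPhigh 1, where the 5 progenitor-like cells held more. The endothelial-like mean in MMPlow was 1.5 times that of the next class. Granulocyte or mast-like cells and progenitor-like cells followed and overlapped, the latter with 109, 109.5, 176 and 103 CPM. Megakaryocyte-like cells held 28.0, 20.5, 9.27 and 9.48 CPM of Erg, macrophage-like cells 25.4, 17.6, 0.510 and 0.585 CPM, and erythroid-like cells 9.85, 12.6, 0.555 and 0.192 CPM. For comparison, muscle progenitor-like cells held 20.2 and 35.5 CPM in MMPlow, above the erythroid-like value in both libraries, below the megakaryocyte-like and macrophage-like values in MMPlow 1 and above them in MMPlow 2.

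**Figure D1:**
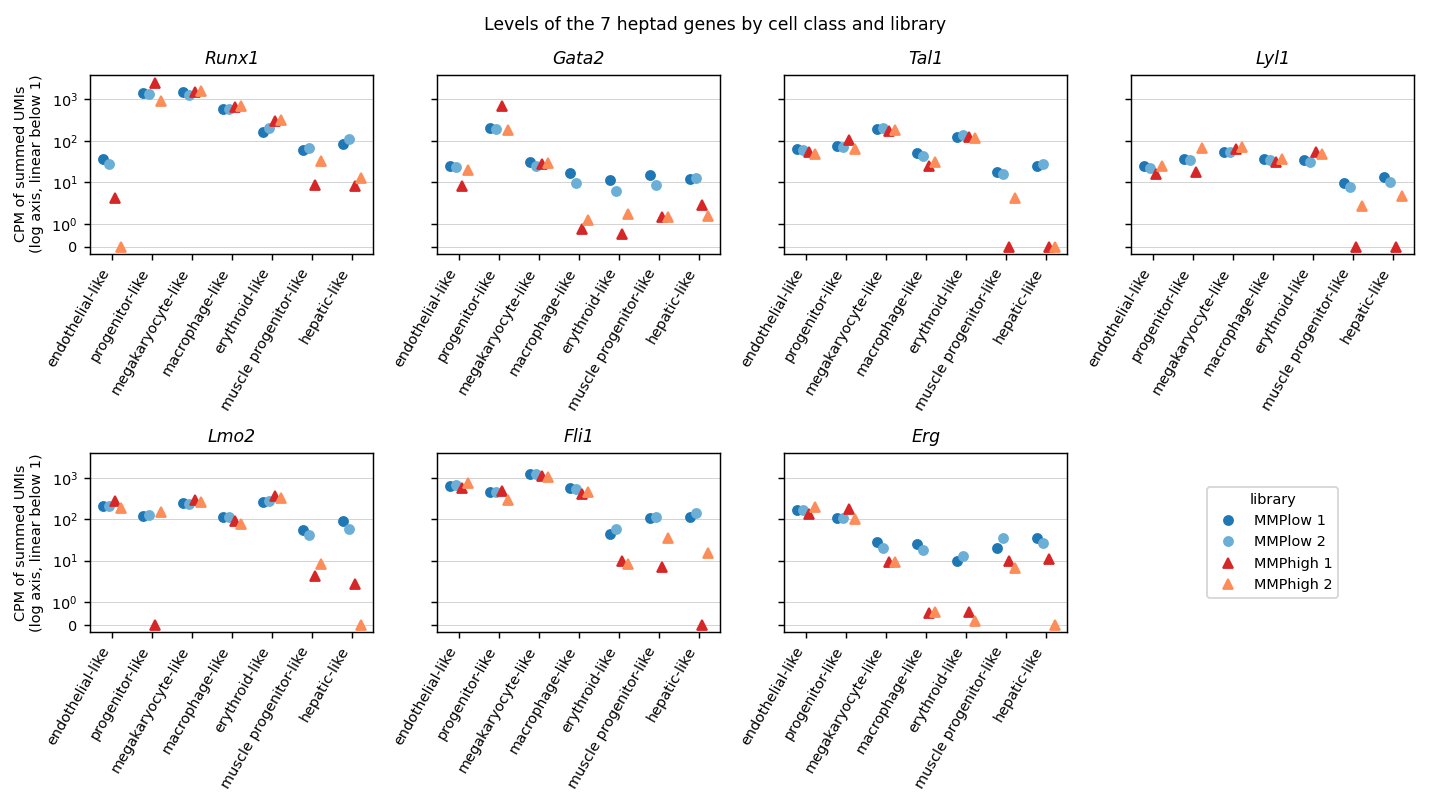
Level of each of the 7 genes (CPM of the summed cells, log axis that is linear below 1) by cell class, 1 point per library, circles for MMPlow and triangles for MMPhigh. In MMPlow, Gata2 is highest in progenitor-like cells, Erg is highest in endothelial-like cells, and Runx1 is lowest in endothelial-like cells.

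How the UMIs of a gene were spread over classes followed both its level and the number of cells. Endothelial-like cells made up 48.7% and 47.1% of cells in MMPlow and carried 80.9% and 79.1% of all Erg UMIs there. In MMPhigh they were 0.363% and 0.441% of cells and carried 14.7% and 13.1% of Erg UMIs. The same cells carried 6.45% and 4.56% of Runx1 UMIs in MMPlow. Megakaryocyte-like cells, 6.01% and 5.58% of MMPlow cells, carried 29.4% and 27.2% of Runx1 UMIs. Progenitor-like cells were 3.8% and 3.97% of MMPlow cells and carried 22.0% and 26.2% of Gata2 UMIs. In MMPhigh the macrophage-like cells carried 46.4% and 48.5% of Runx1 UMIs. The largest holder of Gata2 among the named classes differed between fractions. In MMPlow it was endothelial-like cells, with 43.6% and 41.7% of Gata2 UMIs, and in MMPhigh neural-like cells, with 36.5% and 33.8%, being 13.4% and 29.1% of cells.

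**Figure D2:**
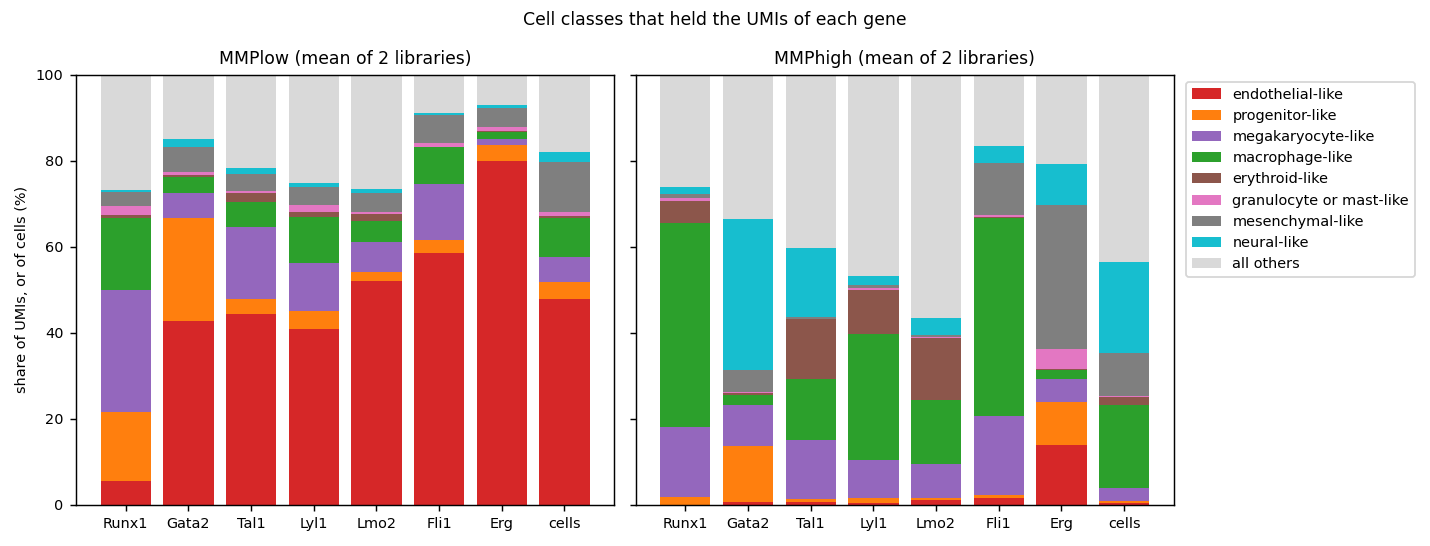
Share of each gene's UMIs (percent of those in all retained cells) carried by each cell class, as the mean of the 2 libraries of MMPlow (left) and MMPhigh (right), with the share of cells as the last bar and all other cells in light grey. Endothelial-like cells carry 80.9% and 79.1% of Erg UMIs in MMPlow and 14.7% and 13.1% in MMPhigh.

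At a finer clustering (Leiden resolution 2), 3 groups took the progenitor name, and together they hold more cells than the 1369 of the progenitor-like class above, so they are not its subdivision. One group of 665 cells with Cpa3 and Hdc among their leading genes, both genes of mast cells and basophils, and 1 progenitor marker among them, held 324 CPM ± 24.7 (SD, n = 2 MMPlow libraries) of Gata2, with Erg at 73.8 and Lmo2 at 69.9 CPM. A second progenitor-like group of 659 cells, with Angpt1 and Hlf among its leading genes, both linked to stem and progenitor cells, held 60.2 CPM of Gata2, 153 of Erg and 179 of Lmo2. A further group of 1425 cells, with Muc13 and Slc25a21 among its leading genes, held 39.5 CPM of Gata2, 26.1 of Erg, 396 of Lmo2 and 117 of Tal1. Runx1 stood at 1474, 1286 and 839 CPM in these groups. These groups were formed from the other genes of the same cells, so the values describe them and test nothing.

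Among endothelial-like clusters, one of 953 cells led by Gja5, Vegfc and Gja4, genes of arterial endothelium, held the most Runx1, Gata2 and Fli1. Its Runx1 level was 71.8 and 44.1 CPM in MMPlow, its Gata2 level 47.9 and 47.6 CPM and its Fli1 level 844 and 860 CPM, each above the other 5 endothelial-like clusters in the same library. Lmo2 was highest in a cluster led by Apcdd1 and Palmd, at 349 and 356 CPM, while the arterial cluster held 183 and 198 CPM. Erg ranged from 130.3 to 189 CPM among these clusters in MMPlow 1. After thinning, Runx1 was detected in 9.74% and 6.81% of the cells of the arterial cluster (95% intervals 7.08 to 13% and 4.81 to 9.30%), below the 10.9% and 7.45% of muscle progenitor-like cells and overlapping the intervals of the largest endothelial-like cluster, so this share is not read as expression.

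Detection in single cells was examined at equal depth. With each cell thinned to 2000 UMIs, Runx1 was seen in 89.8% and 87.2% of megakaryocyte-like cells in MMPlow, in 82.7% and 82.1% of progenitor-like cells, in 61.9% and 62.9% of macrophage-like cells and in 22.7% and 27.1% of erythroid-like cells. In endothelial-like cells it was seen in 7.02% and 5.50% of cells in MMPlow and in none of the 16 and 15 cells in MMPhigh. Without thinning the MMPlow shares were 11.7% and 10.2%. Muscle progenitor-like cells, taken as a class that should lack most of these genes, had it in 10.9% and 7.45% of thinned cells. Their median depth before thinning was 4635 and 5918 UMIs, against 3163 and 3636 in endothelial-like cells. The endothelial-like shares lay below this background in each MMPlow library and are not read as expression.

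The number of the 7 genes detected per thinned cell was highest in megakaryocyte-like cells in 3 of the 4 libraries, the exception being MMPhigh 1, where the 5 progenitor-like cells had more. Megakaryocyte-like cells had 2.64 and 2.58 genes on average in MMPlow and 2.09 and 2.62 in MMPhigh. Progenitor-like cells had 2.25, 2.31, 2.60 and 1.96, macrophage-like cells 1.75, 1.66, 1.31 and 1.48, and endothelial-like cells 1.57, 1.56, 1.12 and 1.07. Erythroid-like cells had 0.933, 1.02, 1.14 and 1.08, below endothelial-like cells in MMPlow and slightly above them in MMPhigh. Their place in MMPlow turned at Leiden resolution 0.5 (mean 1.81 against 1.58) and without thinning (2.81 against 2.33). Muscle progenitor-like cells had 0.564 and 0.521 in MMPlow and 0.100 and 0.0735 in MMPhigh, so this background was also lower in MMPhigh. MMPlow and MMPhigh values did not overlap in macrophage-like, endothelial-like and erythroid-like cells, and with 2 libraries against 2 the smallest p that an exact permutation test can give is 0.333.

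At least 3 of the 7 genes were detected in 57.0% and 52.6% of megakaryocyte-like, 40.9% and 42.1% of progenitor-like, 19.9% and 16% of macrophage-like, 15.2% and 14.8% of endothelial-like and 4% and 4.71% of erythroid-like cells in MMPlow. No cell held all 7 at 2000 UMIs. Without thinning, 2, 15, 1 and 20 cells held all 7. Of the 20 in MMPhigh 2, the deepest library, 10 were in unnamed clusters, 6 were progenitor-like, 3 megakaryocyte-like and 1 granulocyte or mast-like.

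**Figure D3:**
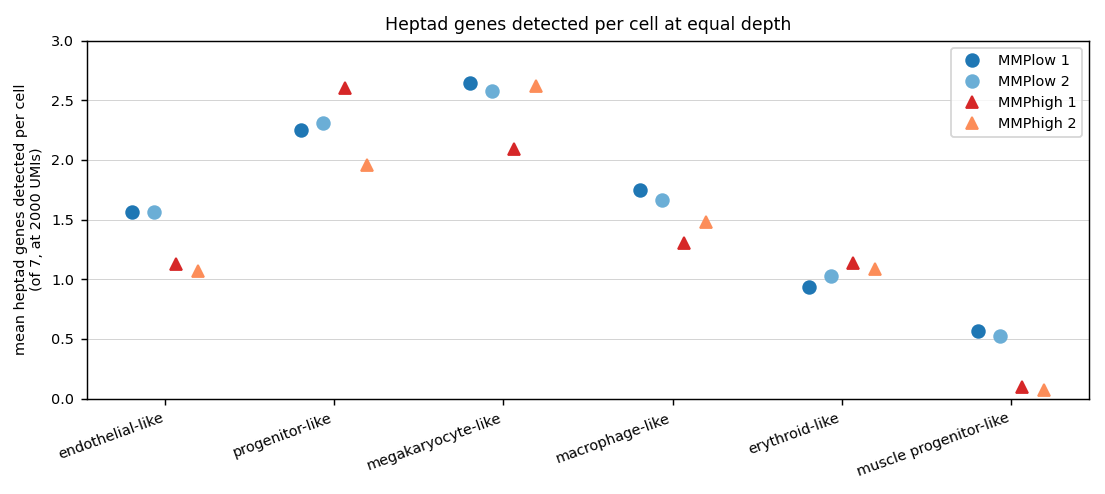
Mean number of the 7 genes with a UMI per cell thinned to 2000 UMIs, by cell class, 1 point per library. Megakaryocyte-like cells stand highest in MMPlow at 2.64 and 2.58, and muscle progenitor-like cells lowest of the 6 classes plotted at 0.564 and 0.521.

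Whether members met in the same cell more often than their separate shares predict was examined within each class and library, as the number of thinned cells with both genes over the number expected from the product of the shares. Over all cells of MMPlow, Runx1 and Erg met in 940 cells against 1605 expected, a ratio of 0.59, and Runx1 and Gata2 in 679 against 483, a ratio of 1.40. Runx1 with Tal1 gave 1.35 and Runx1 with Lyl1 gave 1.37.

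Within a class, most pairs lay near 1. A ratio cannot exceed 1 over the larger of the 2 shares. In megakaryocyte-like cells of MMPlow, Runx1 was seen in 89.8% and 87.2% of cells and Fli1 in 86.9% and 84.5%. Pairs with either gene therefore had little room above 1 there. The median ratio in MMPlow was 0.984 over 21 pairs in endothelial-like cells, 0.997 over 18 pairs in megakaryocyte-like cells, 1.03 over 20 pairs in progenitor-like cells and 1.04 over 16 pairs in macrophage-like cells. Erythroid-like cells had 1 pair with enough expected cells, Runx1 and Lmo2. These met in 24 of 160 cells against 14.5 expected, a ratio of 1.67, the highest within a class at 2000 UMIs. Without thinning, 11 pairs had enough expected cells in this class, and the highest ratio was 1.36. The variance of the number of genes per cell was 0.984 and 0.991 times that of independent detection in endothelial-like cells, and 1.08 and 1.07 times in progenitor-like cells. Cells with at least 4 genes numbered 178 and 179 among endothelial-like cells against 192 and 193 expected. Among progenitor-like cells they numbered 69 and 93 against 67.0 and 91.3. The endothelial-like median moved with depth, to 1.02 with 1000 UMIs and 1.09 with no thinning, where 20 of 21 pairs lay above 1 in both libraries against 5 of 21 at 2000 UMIs.

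Among classes with several pairs, macrophage-like ratios ran from 0.807 to 1.52, the highest being Tal1 with Lyl1 (30 cells against 19.7 expected). How far a ratio can move depends on the shares, so spreads are not strictly comparable between classes. Progenitor-like cells had the widest spread of pair ratios among these classes, from 0.72 to 1.53. Gata2 met Lmo2 in 55 cells against 76.6 expected, with ratios of 0.751 and 0.690 in the 2 MMPlow libraries. It met Lyl1 in 17 against 23.4 cells and Erg in 62 against 78.3 cells. These 3 pairs were below 1. Lyl1 met Lmo2 in 25 cells against 16.9, a ratio of 1.53, and Tal1 with Erg gave 1.20. In endothelial-like cells the ratios ran from 0.899 to 1.23, and the highest were of pairs with Runx1, whose share there lay below the background and is not read as expression. Cells of a class share its sub-clusters, and these ratios carry no p.

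**Figure D4:**
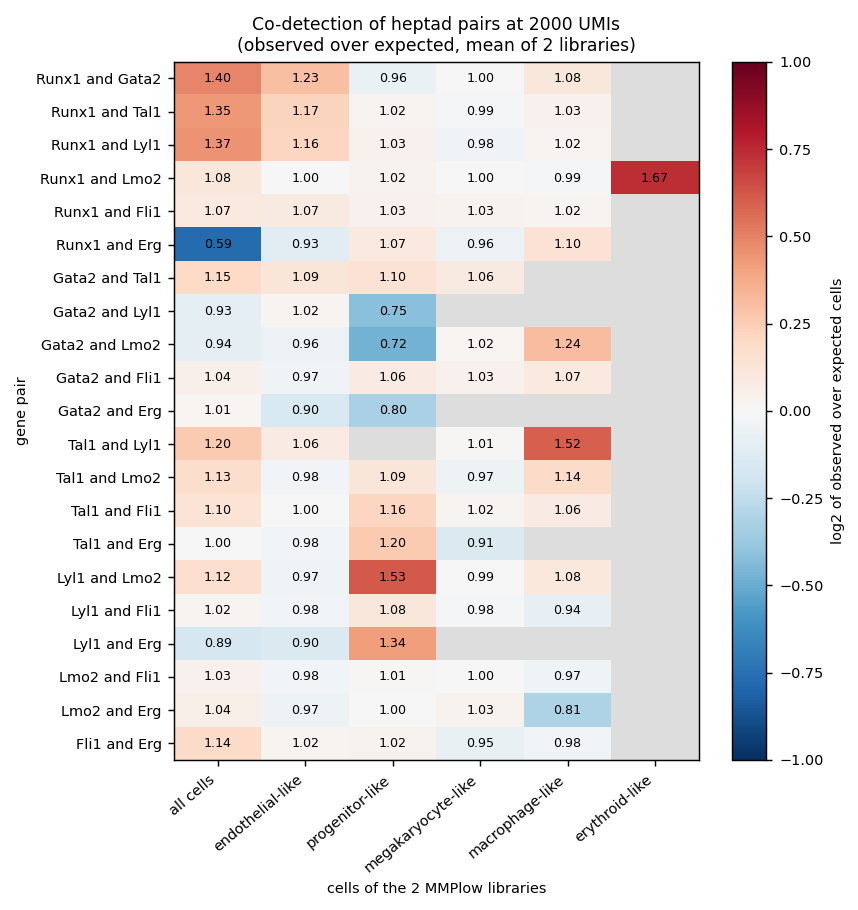
Ratio of observed to expected co-detection (mean of the 2 MMPlow libraries, printed in each cell; colour is its log2) for the 21 pairs of the 7 genes in cells thinned to 2000 UMIs, by cell class, with grey where under 5 cells were expected. Pairs of Gata2 with Lmo2 and with Lyl1 lie lowest in progenitor-like cells, and over all cells Runx1 with Erg lies at 0.59.

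The comparison of the fractions began with sums over all cells, tested by edgeR's quasi-likelihood method on the UMIs of each library, with Benjamini-Hochberg adjustment over all genes tested and a threshold of 0.05. Of the 7 genes, 5 fell in MMPhigh and none rose, where 53.9% of all 20418 genes tested were called. Erg stood at 100.3, 95.8, 5.47 and 5.13 CPM, a log2 fold of -4.18 (SE 0.10) with an edgeR adjusted p of 1.57e-07. Gata2 stood at 28.1, 25.1, 8.57 and 9.66 CPM, a log2 fold of -1.50 (SE 0.10), and Fli1 at 511, 509.6, 178 and 191 CPM, a log2 fold of -1.43 (SE 0.10). For each of these 3 the libraries of the 2 fractions were far apart. Tal1 fell by 0.70 and Lmo2 by 0.73 on the log2 scale. Runx1 stood at 280.4, 274, 277 and 297 CPM (log2 fold 0.08, edgeR adjusted p 0.483) and Lyl1 at 26.8, 26.7, 22.1 and 24.3 CPM (log2 fold -0.17, edgeR adjusted p 0.124). Runx1 was called with the stricter cell filter (log2 fold 0.64, edgeR adjusted p 0.00868) and Lyl1 with the looser one (-0.38, 0.0320). The median log2 fold was -0.73 over the 7 genes and 0.01 over all genes tested. The endothelial marker list moved with these sums: 12 of its 12 genes fell, and endothelial-like cells were 48.7% and 47.1% of cells in MMPlow against 0.363% and 0.441% in MMPhigh. Their part in the sums was not tested, and the values within classes follow.

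Within endothelial-like cells 1 of the 7 genes was called, Runx1, where 1.59% of all genes were called. Runx1 passed the filter on low counts through MMPlow, and its level there lay below the muscle progenitor-like background, so the call is not read as a change of expression. It had 2224 UMIs in MMPlow, against 1 UMI in the 16 and 15 endothelial-like cells of the MMPhigh libraries, and the log2 fold was -4.32 (SE 0.95) with an edgeR adjusted p of 0.0297. The pooled level was 19.5 times higher in MMPlow, with a 95% interval of 3.49 to 769 that covers counting error only. The call was lost in 4 alternatives: with the DESeq2 Wald test (adjusted p 0.0663), with a filter of 10 CPM in 2 libraries (edgeR adjusted p 0.130), and without MMPlow 1 (0.470) or MMPhigh 2 (0.0743). Some lists of blood cell markers moved with it, but not all. The megakaryocyte list summed to 449, 425, 20.4 and 41.7 CPM in these cells. Of its genes, 2 of 12 were called lower and 6 were at 0 in MMPhigh (Ppbp, Itgb3, Gp9, Gp1ba, Gp1bb and Gp5). The macrophage list summed to 221, 200, 77.4 and 66.6 CPM and the granulocyte or mast list to 255, 242, 4.07 and 2.78 CPM. The progenitor list, at 495, 518, 330 and 533 CPM, overlapped between the fractions, and none of its 11 tested genes was called. The part of these lists in the Runx1 result was not tested. The other 6 genes, Erg and Fli1 among them, missed the threshold on 16 and 15 cells, which does not show that they were alike.

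In megakaryocyte-like cells, Erg alone was called, where 10.8% of all genes were. The 4 Erg levels given above correspond to a log2 fold of -1.21 (SE 0.29) with an edgeR adjusted p of 0.0184. Both MMPhigh libraries lay below both MMPlow libraries. The MMPlow levels, at 28.0 and 20.5 CPM, were near the muscle progenitor-like background of 20.2 and 35.5 CPM, so the call is not read as a change of expression. The call was lost in 3 alternatives: without MMPlow 1 the edgeR adjusted p was 0.260, with the stricter cell filter 0.427, and with DESeq2 it was 0.125. The endothelial marker list summed to 1279, 1037, 396 and 408 CPM in these cells and 11 of its 12 genes fell, with Cldn5 at 0 in MMPhigh, and its part in the Erg result was not tested.

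Macrophage-like cells had 4 called genes of the 7, where 42.9% of all genes were called. Erg was called lower at -4.95 on the log2 scale (SE 0.31, edgeR adjusted p 1.00e-06), Gata2 at -3.25 (SE 0.36, edgeR adjusted p 5.27e-05) and Tal1 at -0.48 (SE 0.13, edgeR adjusted p 0.0113). In the MMPhigh libraries Erg had 4 and 13 UMIs and Gata2 6 and 28, and in MMPlow both were near the muscle progenitor-like background given above, so neither call is read as a change of expression. Tal1 in that background went from 17.8 and 16.2 CPM in MMPlow to 0 and 4.09 CPM in MMPhigh, and its part in the Tal1 call was not tested. Runx1 rose by 0.48 (SE 0.11) on the log2 scale, with an edgeR adjusted p of 0.00449. That fold includes edgeR's scaling between libraries, and the CPM, at 587, 586, 675 and 686, differed by less. The MMPhigh libraries lay below the MMPlow libraries for Erg, Gata2 and Tal1 and above them for Runx1. The Tal1 call was lost in 5 alternatives: without MMPlow 1 (edgeR adjusted p 0.117) or MMPhigh 1 (0.0613), with DESeq2 (0.0550), with the stricter cell filter (0.265) and at Leiden resolution 0.5 (0.0889). The Runx1 call was lost at Leiden resolution 2 (edgeR adjusted p 0.118). The macrophage marker list moved with these results, summing to 4328, 5021, 8031 and 8398 CPM with 10 of 12 genes called higher, and its part in them was not tested.

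The fractions were not made of the same macrophage-like cells. A cluster led by F13a1 and Mrc1 held 2390 macrophage-like cells of MMPlow and 50 of MMPhigh, a cluster led by Mrc1 and C1qb held 667 and 943, and one led by Ctss and Mpeg1 held 30 and 459. Runx1 stood at 661, 699.9, 1477 and 1119.5 CPM in the first of these and at 623, 750.2, 862 and 879 CPM in the last. In the cluster led by Mrc1 and C1qb, Runx1 stood at 403, 402, 576 and 597 CPM, Erg at 12.7, 10.4, 0.726 and 0.647 CPM and Gata2 at 11.3, 5.60, 0.726 and 1.62 CPM. These 3 genes kept the direction they had in the class, while Tal1, at 32.6, 30.6, 24.7 and 30.2 CPM, was lower in both MMPhigh libraries by less than in the class. The endothelial marker list summed to 1111, 829, 111 and 114 CPM in macrophage-like cells and 12 of its 12 genes fell, and its part in the Erg and Gata2 results was not tested.

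Among erythroid-like cells, 6 of the 7 genes passed the filter on low counts and 3 were called, where 9.10% of all genes were called. Runx1 rose by 0.60 (SE 0.14) on the log2 scale with an edgeR adjusted p of 0.00767, and both MMPhigh libraries lay above both MMPlow libraries. Fli1 was called lower with a log2 fold of -2.70 (SE 0.27) and an edgeR adjusted p of 1.89e-07. Erg was called lower with a log2 fold of -5.19 (SE 0.72) and an edgeR adjusted p of 2.61e-05, on 19 UMIs in MMPlow and 2 in MMPhigh. It passed the filter on low counts through MMPlow, and its level there, like that of Fli1, lay below the muscle progenitor-like background, so neither call is read as a change of expression. The pooled level was 40.1 times higher in MMPlow, with a 95% interval of 9.66 to 355 from counting error only. Runx1 lost its call with DESeq2 (adjusted p 0.0690), without MMPlow 1 (edgeR adjusted p 0.165) and at Leiden resolution 2 (0.675). At resolution 0.5, where the class took in 1281, 1262, 131 and 341 cells, its log2 fold was -0.14. Erg lost its call without MMPhigh 2 (edgeR adjusted p 0.0564) and at resolution 2 (0.148), and Fli1 at resolution 2 (0.383). The erythroid marker list itself differed between the fractions in this class, at 111555, 94172, 32136 and 7889 CPM with 4 of 15 genes called lower, and its part in the Runx1 result was not tested. The endothelial marker list fell here too, from 394 and 425 CPM to 114 and 108 CPM, with 11 of 12 genes called lower and Tie1, Emcn, Cldn5 and Flt1 at 0 in MMPhigh. Its part in the Fli1 and Erg results was not tested.

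Progenitor-like cells had only 5 cells in MMPhigh 1, and a fit was added with that limit relaxed. It called 1 of the 7 genes, Lyl1, higher by 1.09 (SE 0.32) on the log2 scale, edgeR adjusted p 0.0137, where 12.1% of all genes were called, and the 2 fractions overlapped in CPM. Without MMPhigh 2, which holds 25 of these cells, the log2 fold was -1.12. Of the other alternatives run, 4 kept the Lyl1 call and 5 lost it. The endothelial marker list summed to 1255, 1042, 440 and 438 CPM in these cells, with 8 of 12 genes called lower.

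Whether a member's change differed between classes was tested with edgeR on the sums of 2 classes at a time, library kept as a block. The Runx1 differences from endothelial-like cells rest on the level under background given above. Against endothelial-like cells, the change differed for 3 of the 7 genes in erythroid-like cells (Runx1, Fli1 and Erg; 12.4% of all genes called), for 3 in macrophage-like cells (Runx1, Gata2 and Erg; 10.7%) and for 2 in megakaryocyte-like cells (Runx1 and Erg; 9.03%). Macrophage-like and erythroid-like cells differed in 2 genes, Lmo2 and Fli1 (14.8% called). Megakaryocyte-like cells differed from erythroid-like cells in Gata2, Fli1 and Erg (4.18% called) and from macrophage-like cells in Gata2, Lmo2 and Erg (13% called). Tal1 and Lyl1 were called in none of these 6 pairs. Against the muscle progenitor-like background, both were called in erythroid-like, macrophage-like and megakaryocyte-like cells (6.23%, 13.1% and 3.62% of all genes called), as were Runx1 and Lmo2. Neither Tal1 nor Lyl1 was called in endothelial-like cells (2.53% called). The log2 folds of Tal1 and Lyl1 were lower in muscle progenitor-like cells each time. These tests rest on muscle progenitor-like sums of 36 and 17 UMIs of Tal1 and 18 and 11 of Lyl1 in MMPlow and MMPhigh. They are not read as differences in expression. In erythroid-like cells Gata2 (14 UMIs in MMPlow and 10 in MMPhigh), Fli1 and Erg lay below the muscle progenitor-like background in MMPlow, so differences that rest on them are not read as differences in expression. The differences that rest on Erg in macrophage-like or megakaryocyte-like cells, or on macrophage-like Gata2, carry the same limit, since those MMPlow levels were near that background. Lmo2 also fell in that background, as given next, and the part of that fall in the Lmo2 differences was not tested.

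Classes outside blood and endothelium were read beside these as a background. In muscle progenitor-like cells Lmo2 fell by 2.64 and Erg by 1.89 on the log2 scale, with edgeR adjusted p values of 0.00214 and 0.0372, where 1.93% of all genes were called. The Erg call was lost in 5 of 15 alternatives, with DESeq2, with the stricter cell filter and without MMPlow 1, MMPlow 2 or MMPhigh 2 (adjusted p from 0.0613 to 0.777), and the Lmo2 call with doublets kept (0.0593). Their endothelial marker list went from 627 and 694 CPM to 8.52 and 25 CPM and 12 of its 12 genes fell. In neural-like cells 4 of the 7 genes fell (16.6% of all genes called), Erg with a log2 fold of -3.69, and in mesenchymal-like cells 6 of the 7 fell (20.9% called), Tal1 with -4.04 and Lmo2 with -3.77. In hepatic-like cells 4 of the 7 fell (6.63% called). In these classes endothelial markers summed to 917, 768, 32.1 and 18.2 CPM for neural-like, 884, 729.6, 44.5 and 41.4 CPM for mesenchymal-like and 1087, 937, 36.2 and 45.2 CPM for hepatic-like cells, with 12 of 12 genes called lower in each, and its part was not tested. None of the 7 rose in these 4 classes by the same edgeR test.

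**Figure D5:**
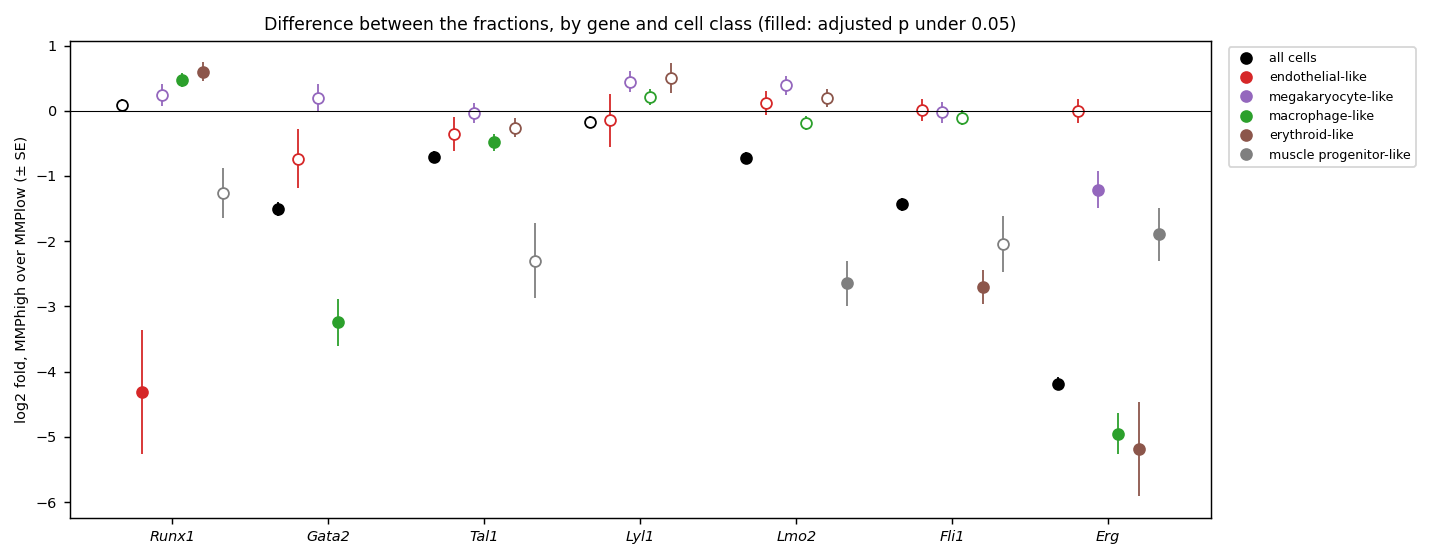
Log2 fold (MMPhigh over MMPlow) of the 7 genes by cell class with its standard error, from edgeR, filled where the adjusted p was under 0.05 and absent where the gene was not tested. Erg lies lowest in erythroid-like cells at -5.19 and macrophage-like cells at -4.95, while Runx1 lies above 0 in both.

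Genes that work with the heptad were taken as a list of 41, made of E proteins and their Id inhibitors, the LIM complex, RUNX, GATA and ETS relatives, corepressors, and further blood and endothelial factors. Over all cells 8 rose and 16 fell, with a median log2 fold of -0.09, where 53.9% of all genes were called. Those with the largest falls were Sox17, an arterial and haemogenic endothelial factor, with -5.58, and the ETS genes Ets1 with -3.30 and Elk3 with -2.92. Those with the largest rises were Runx1t1, a corepressor related to Cbfa2t3, with 2.30, Gata3 with 1.33 and Lmo1 with 1.30.

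As given above, endothelial markers moved with these sums and classes, with 12 of 12 genes lower over all cells and in macrophage-like cells and 11 of 12 in megakaryocyte-like and in erythroid-like cells, and its part in the partner results was not tested. Within macrophage-like cells 5 partners rose and 15 fell of 38 tested, where 42.9% of all genes were called. Runx3 rose by 1.46, Spi1, the myeloid ETS factor PU.1, by 0.86 and Hhex by 0.55 on the log2 scale, and Sox17, Mecom and Hlf fell by 7.91, 5.23 and 2.81. In megakaryocyte-like cells (10.8% of all genes called) 2 of 35 rose, Zfpm1 (FOG1, a cofactor of Gata1) by 0.76 and Gfi1b by 0.56, and 11 fell, with Sox17, Mecom and Id3 lowest. Erythroid-like cells had 4 of 30 higher and 7 lower (9.10% of all genes called). Zfpm1 rose there by 0.84, the corepressor Cbfa2t3 by 0.61 and Ikzf1 by 0.47, while Ets1, Mecom and Elk3 fell by 6.2, 5.98 and 4.34. Progenitor-like cells had 2 of 37 higher, Spi1 by 1.31 and Hhex by 0.95, and 5 lower (12.1% of all genes called). Partner levels in these classes are not set here against the muscle progenitor-like background, so the falls are not read as changes of expression.

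The LIM complex and its relatives were taken as Ldb1, Ssbp2, Ssbp3, Ssbp4, Lmo4, Lmo1 and Tal2. By edgeR none of the 5 tested was called in megakaryocyte-like, erythroid-like, progenitor-like or endothelial-like cells, where 10.8%, 9.10%, 12.1% and 1.59% of all genes were. In macrophage-like cells 1 of 6 rose, Ssbp4 with a log2 fold of 0.43, and 3 of 6 rose in mesenchymal-like and 1 of 6 in neural-like cells, where 20.9% and 16.6% of all genes were called. In endothelial-like cells 1 of 37 partners was called lower, Spi1, and none higher (1.59% of all genes called). That call rests on 16 and 15 cells in MMPhigh and is not read as a change of expression. The macrophage marker list fell in the same cells, from 221 and 200 to 77.4 and 66.6 CPM, with 3 of 11 tested genes called lower. Its part in the Spi1 call was not tested.

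Likeness of pattern was measured by Pearson's r over 39 sums of class and library with at least 20 cells, in 11 classes, on log2(CPM + 10), among 10195 genes. The sums share libraries and depth, so r is a description. Tal1 followed Lmo2 with r = 0.920 and Lyl1 with 0.839, Lyl1 followed Lmo2 with 0.892 and Runx1 followed Lyl1 with 0.875. Erg stood apart from Runx1 (0.210) and Tal1 (0.206). Tal1 and Lyl1 are the first pair of promoters printed above and Runx1 and Erg the second.

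Among other genes, those most like Runx1 were Btk (0.948), Was (0.947) and Dapp1 (0.941). Gata2 was most like Slc18a2 (0.945), Slc22a3 (0.890) and Cpa3 (0.857), the last a mast cell protease. Tal1 was most like Arrb1 (0.903), Gata1 (0.892) and Nrgn (0.869), Gata1 being the main erythroid and megakaryocytic GATA factor. Lyl1 was most like Rbfa (0.947), Was (0.913) and Mir142hg (0.912), and Lmo2 like Vamp5 (0.939), Lrrc8c (0.878) and Pgm2 (0.875). Fli1 was most like Emilin1 (0.942), Itpkb (0.923) and Klhl6 (0.900). Erg was most like Adgrl4 (0.894), Fgd5 (0.883) and Thsd1 (0.870), of which the first and second are known from endothelium.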

How the data were processed

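The deposited files hold, per library, whole-number UMI counts per gene and barcode with no normalization, made by the authors with Cell Ranger 7.0.1 per the file headers, while the submitters' processing notes name Cell Ranger 2.1.1 and the mm10 build. Barcodes with at least 2000 UMIs, 1000 genes and under 25% of UMIs from 13 mitochondrially encoded genes were kept, and doublets called by Scrublet (scanpy 1.11.5) were removed, which marked 887, 973, 0 and 83 barcodes and is taken not to have worked in MMPhigh 1. Clusters (2000 variable genes without the 7 members, 30 components, Leiden resolution 1) took an "-like" name from 13 marker lists with thresholds set after the clusters had been seen, and 8 clusters stayed unnamed. No cluster took the epithelial name, so muscle progenitor-like and hepatic-like cells serve as the background. One unnamed cluster of 746 cells came from MMPlow 2 but for 25 cells.

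UMIs were summed per library and class, where every library held at least 10 cells, and tested with edgeR 4.0.16 (R 4.3.3; TMM, filterByExpr, robust quasi-likelihood F-test, two-sided, Benjamini-Hochberg over all genes tested, threshold 0.05, MMPhigh over MMPlow), with library as a block in tests of the difference between classes. The fit was tested on simulated data. Each standard error was derived from the fold and its F statistic. Intervals and floors (3 counts) cover counting error only. Named genes are the 7 members, up to 3 called genes per direction of the 41-gene partner list with the largest fold, and the 3 genes with the highest r to each member, and single clusters and their leading genes were chosen after their values were seen. Members and lists were chosen with earlier results of these data known. Alternatives were DESeq2 1.42.0, other filters, doublet handling and clustering resolutions, each library left out, and thinning to 1000 UMIs or none.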

Additional observations from a re-analysis of the deposited data

Results flagged for a closer look

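The following results stood out because the MMPhigh to MMPlow change of a gene differed between cell classes, by edgeR's test of the difference itself with the library kept as a block, two-sided and adjusted over all genes tested for that pair of classes. Values are the log2 fold in the first class minus that in the second. Sums of 2 classes come from the same 4 libraries, and the endothelial-like sums of MMPhigh rest on 16 and 15 cells.

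For Runx1 the difference was 5.0 between erythroid-like and endothelial-like cells (edgeR adjusted p 7.34e-09), 4.70 between macrophage-like and endothelial-like cells and 4.62 between megakaryocyte-like and endothelial-like cells. These 3 rest on the endothelial-like sums, where Runx1 had 1 UMI in MMPhigh and lay below the muscle progenitor-like background in MMPlow, so they are not read as differences in expression. For Gata2 the difference was -2.64 for macrophage-like against endothelial-like, 2.86 for megakaryocyte-like against erythroid-like cells, where erythroid-like Gata2 had 14 and 10 UMIs and lay below that background in MMPlow, and 3.36 for megakaryocyte-like against macrophage-like cells. Gata2 stood at 31.3, 24.1, 27.8 and 29.1 CPM in the 4 megakaryocyte-like sums, where the fractions overlapped, and was lower in MMPhigh than in MMPlow in the macrophage-like and erythroid-like sums.

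Erg in erythroid-like cells rests on 19 and 2 UMIs, below the same background in MMPlow. For Erg the differences against endothelial-like cells were -5.37 in erythroid-like, -5.09 in macrophage-like and -1.17 in megakaryocyte-like cells. Megakaryocyte-like cells differed from erythroid-like cells by 4.02 and from macrophage-like cells by 3.68. The MMPlow levels of Erg in macrophage-like and megakaryocyte-like cells, and of Gata2 in macrophage-like cells, were near the same background, so these differences and the Gata2 differences that rest on macrophage-like cells carry the same limit. Fli1 in erythroid-like cells also lay below it in MMPlow, and the differences that rest on these erythroid-like sums are not read as differences in expression. For Fli1 erythroid-like cells differed from endothelial-like cells by -2.66, and macrophage-like and megakaryocyte-like cells differed from erythroid-like cells by 2.45 and 2.60. For Lmo2 the difference was -0.56 for macrophage-like against erythroid-like and 0.55 for megakaryocyte-like against macrophage-like cells. In muscle progenitor-like cells Lmo2 went from 53.4 and 41.7 CPM in MMPlow to 4.26 and 8.19 CPM in MMPhigh. The part of that background in the Lmo2 differences was not tested. The endothelial marker list was lower in MMPhigh in macrophage-like, megakaryocyte-like and erythroid-like cells, as given in the report, and its part in the Erg, Fli1 and Gata2 differences was not tested.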

How the results depend on the processing

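Over all cells, 5 of the 7 genes were called under every alternative run. Within endothelial-like, megakaryocyte-like, macrophage-like and erythroid-like cells together there were 9 calls, against 5 with the DESeq2 Wald test, 5 at Leiden resolution 2, and 4 to 8 with 1 library left out, the lowest without MMPlow 1. The 322 other results under alternatives were log2 folds of single genes and counts of members called per class. Of these, 278 stayed the same. For a fold this means the same direction and side of the threshold, and for a count a value close to the reported one. Of the rest, 30 folds lost a call, 2 gained one, 2 reversed direction and 10 counts moved. The Runx1 log2 fold in erythroid-like cells was -0.14 at Leiden resolution 0.5 and the Lyl1 fold in progenitor-like cells ran from -1.12 (without MMPhigh 2) to 1.25 (without MMPhigh 1), and the cause was not tested. Erg and Gata2 in macrophage-like cells kept their calls under every alternative run. The class with the highest level of a gene was the same for 7 genes, except that Runx1 moved to progenitor-like cells with the stricter filter and that at resolution 0.5 no cluster took the progenitor name, which left megakaryocyte-like cells highest for Gata2.

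Genes detected per cell in MMPlow move with depth by construction. With 1000 UMIs the means were 0.95, 1.55, 1.84, 1.07 and 0.644 in endothelial-like, progenitor-like, megakaryocyte-like, macrophage-like and erythroid-like cells, against 1.57, 2.28, 2.61, 1.71 and 0.978 as reported and 2.33, 2.96, 3.32, 2.30 and 2.81 with no thinning. Resolution 0.5 gave 1.58 in endothelial-like, 1.45 in macrophage-like and 1.81 in erythroid-like cells, resolution 2 gave 2.17 in progenitor-like cells, and keeping doublets gave 1.57 in endothelial-like cells. The median co-detection ratio in endothelial-like cells was 1.02 with 1000 UMIs and 1.09 with no thinning. With 1 MMPlow library left out, the means ranged from 1.56 to 1.57, 2.25 to 2.31, 2.58 to 2.64, 1.66 to 1.75 and 0.933 to 1.02 in the same order of classes.

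With the replicate number as a block, edgeR called 5 of the 7 genes over all cells and 10816 genes in all, against 11004 without it. Endothelial-like cells had 326 called genes against 239, and erythroid-like cells 527 against 769. In megakaryocyte-like cells 2 of the 7 genes were called under the block, Erg and Lmo2 (edgeR adjusted p 0.0479 for Lmo2), with 1995 genes called in all against 1267. It called 5 of the 7 in muscle progenitor-like cells, with 402 genes in all against 191, and in progenitor-like cells Lyl1 lost its call (edgeR adjusted p 0.748), with 158 genes in all against 1244. Same-numbered libraries deviated together with a correlation of 0.119 over all cells, 0.207 in megakaryocyte-like and 0.0157 in endothelial-like cells. With 2 numbers and nothing in the labels to tie them, the numbers were not taken to pair the libraries.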

Other observations

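Gata2 and Tal1 were also counted in neural-like cells of the fraction with few endothelial-like cells. In MMPhigh, neural-like cells held 15.7 and 11.6 CPM of Gata2 and 35.1 and 20.2 CPM of Tal1, while muscle progenitor-like cells of the same libraries held 1.42 and 1.44 CPM of Gata2 and 0 and 4.09 CPM of Tal1. Both genes are known from a class of inhibitory interneurons of the spinal cord and hindbrain, as is Gata3, which stood at 44.8 and 34.5 CPM in the neural-like cells of MMPhigh. Gad2, which makes the transmitter GABA, stood at 154 and 159 CPM and Slc6a5, the glycine transporter of inhibitory neurons, at 133 and 117 CPM. In the same cells Runx1 stood at 16.3 and 23.0 CPM, Lmo2 at 18.0 and 16.7, Fli1 at 27.3 and 34.0, Erg at 2.20 and 2.02 and Lyl1 at 1.83 and 2.12 CPM. Runx1 and Fli1 stood at 8.52 and 32.5 and at 7.10 and 34.4 CPM in the muscle progenitor-like cells of these libraries, and Lmo2 at 4.26 and 8.19 CPM.

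At the finer clustering, one group of 998 neural-like cells held Gata2 at 20.2 and 14.1, Tal1 at 29.9 and 23.0 and Gata3 at 61.6 and 44.7 CPM in MMPhigh. A group of 579 cells left without a name, in which Gad2 stood at 462 and 437 CPM, held Gata2 at 0.572 and 3.98 and Tal1 at 4 and 12.7 CPM. A further neural-like group of 974 cells held Tal1 at 74.7 and 16.8 CPM. These groups were picked after their values were seen and no test was made between them.

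An unnamed cluster of 2636 cells, led by red cell genes such as Ermap, Cpox and Klf1 together with Myb, held 578, 443, 405 and 369 CPM of Runx1, 357, 395, 435 and 388 CPM of Lmo2 and 113, 107, 105 and 105 CPM of Tal1 in the 4 libraries. Fli1 stood there at 179.6, 142, 122 and 94.7 CPM. A further unnamed cluster of 157 cells, all from MMPlow, held 853 and 787 CPM of Runx1 beside 171 and 166 CPM of Erg and 820.3 and 696 CPM of Fli1. Scrublet's calls had been removed before both clusters were formed, and whether the remaining cells are doublets was not tested.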
